A study of Homo sapiens with 6 samples.

Results

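The baseline transcriptome of BT-549 cells in unconditioned medium (UCM) was taken from the 3 UCM samples of a series of 6. BT-549 is an established human breast cancer cell line, and the study asked how factors released by adipocytes change its gene expression. Wild-type cells were plated in a 6-well plate and kept for 24 h in UCM, while the other 3 samples received adipocyte-conditioned medium and were not used here. The line was maintained in RPMI-1640 supplemented by fetal bovine serum of tetracycline-free grade (10%) and 0.8 ug/mL insulin, at 37 °C and 5% CO2, and the formula of UCM was not given in the sources used here. PolyA RNA was sequenced as paired reads of 150 bp. The labels do not say whether the 3 samples came from separate cultures or from wells of the same plate, so the spread between them may be technical.

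Breast epithelia hold luminal cells, which carry keratins 8, 18 and 19 and, in part, hormone receptors, and basal cells, which carry contractile and basal keratin genes. Carcinoma cells that pass through an epithelial-mesenchymal transition (EMT) lose E-cadherin and epithelial keratins and take up vimentin, N-cadherin and matrix genes. Tumors that lack estrogen receptor, progesterone receptor and amplified ERBB2 are called triple negative, and their cells often carry EGFR and, in part, lesions in RB1.

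The deposited tables held expected counts, estimated for each gene by RSEM, and a length-corrected transcript level (TPM), whose values divide those counts by an effective transcript length and scale every library to the same sum. Expected counts summed to 20975782 in replicate 1, 18591289 in replicate 2 and 17135288 in replicate 3. At these depths 3 counts in a transcript with an effective length of 1 kb correspond to 0.206, 0.228 and 0.251 TPM, and this limit, like every floor given for a count of 0, covers counting error only.

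Replicate 1 stood apart from the other samples. Chi-square over degrees of freedom, computed on counts across genes, was 2.35 between replicates 2 and 3, against 21.5 between replicates 1 and 2 and 19.96 between replicates 1 and 3. All 3 pairs differed by more than counting noise alone, which does not show whether they are biological replicates. The samples were kept as 3. Pearson correlations of log2(TPM + 1) across the 12748 detected genes, which are not independent replicates, were 0.987, 0.987 and 0.992 for the pairs 1 and 2, 1 and 3, and 2 and 3. Of 11359 detected protein-coding genes of the nuclear genome, 343 (3.02%) lay at least 1.5-fold away from both other samples in replicate 1, 233 of them higher and 110 lower. The same count was 67 (0.590%) for replicate 2 and 60 (0.528%) for replicate 3.

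The messenger RNAs of the mitochondrial genome, which encode respiratory chain subunits, took 8.21% of TPM in replicate 1, 4.63% in replicate 2 and 4.78% in replicate 3. Their shares of counts were smaller, at 2.89, 1.67 and 1.72%, and the TPM shares include MT-ATP8 and MT-ND4L, whose TPM are unreliable. Each of the 13 was highest in replicate 1, with a median log2 ratio of replicate 1 to the mean of replicates 2 and 3 of 0.72 in normalized counts scaled to library size (CPM). Their summed TPM averaged 58746 over the 3 samples and 47077 without replicate 1. Among the 11359 nuclear protein-coding genes 38.7% were highest and 43.8% lowest in replicate 1, which is the background for such counts. Proliferation genes lay toward lower values, with a median log2 ratio of -0.15 and 23 of 27 lowest in replicate 1. Cytosolic ribosomal protein genes were also lower there, 68 of 84 being lowest in replicate 1. Toward higher values lay the 10 detected hormone receptor and luminal genes, with a median log2 ratio of 0.35 but only 6 highest and 3 lowest in replicate 1, and tumor suppressors at 0.14, of which 30 of 45 were highest in replicate 1. Over all these nuclear genes the median log2 ratio was -0.017, and it differed with transcript length. It was -0.10 in the quartile of shortest effective length, -0.05 in the next, -0.002 in the third and 0.11 in the quartile of longest. What set replicate 1 apart was not tested. Where a single value is given for a gene it is the mean of the 3 samples, and no list sum moved by over 1.5 times without replicate 1.

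**Figure D1:**
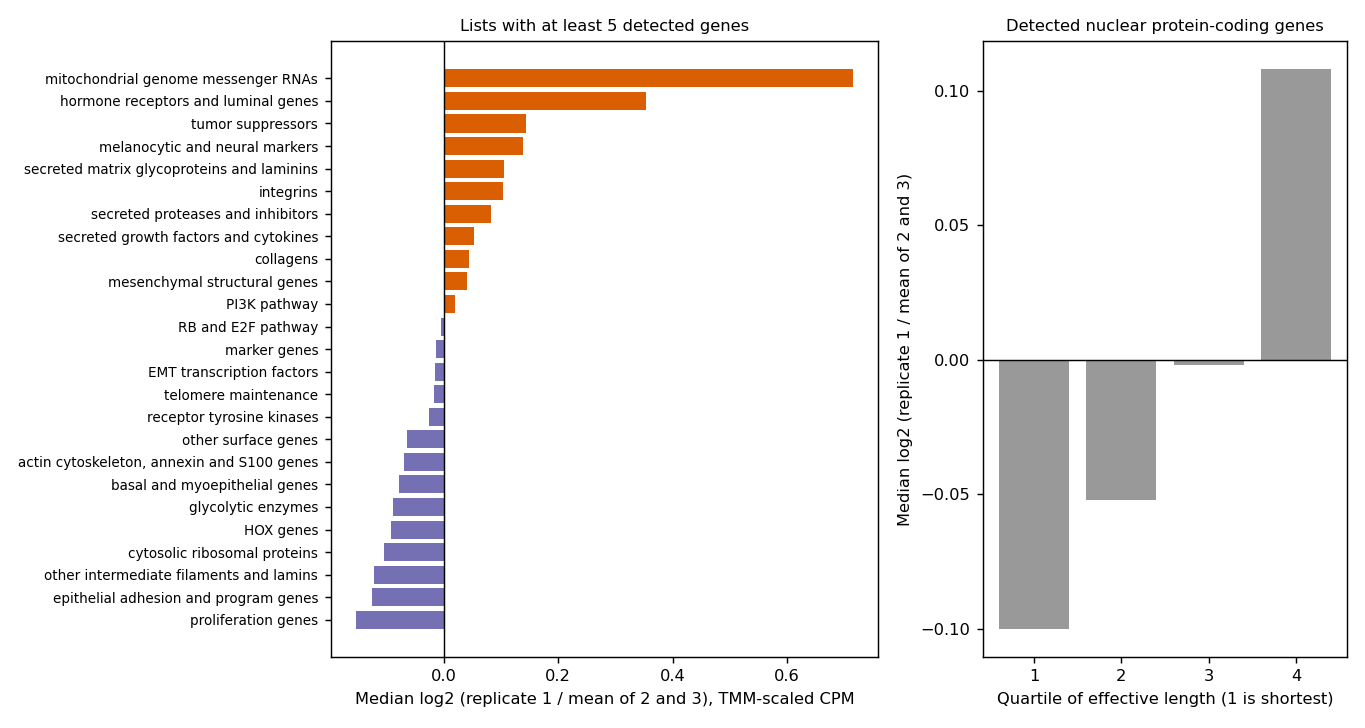
Left, median log2 ratio of replicate 1 to the mean of replicates 2 and 3 in TMM-scaled CPM for each list with at least 5 detected genes; right, the same median for 11359 nuclear protein-coding genes by quartile of effective length. The mitochondrial messenger RNAs sit at 0.72 and the proliferation genes at -0.15, and the 4 length quartiles run from -0.10 to 0.11.

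A gene counted as detected at a TPM of at least 1 in every sample, undetected at a count of 0 in every sample, and low otherwise. Of 63140 genes, 12748 (20.2%) were detected and 39684 had no count. Protein-coding genes made up most of the signal, with 11372 of 19981 (56.9%) detected, 3978 low and 4631 undetected, at a median of 4.47 TPM. Long noncoding RNAs were detected in 1078 of 18624 cases and pseudogenes in 179 of 14818. The detected protein-coding genes were spread unevenly over levels: 3088 averaged under 10 TPM, 6583 between 10 and 100 TPM, 1568 between 100 and 1000 TPM, and 133 at or above 1000 TPM. Those 133 genes took 33.7% of all TPM. By chromosome, the detected share of protein-coding genes was lowest on X, with 378 of 859, and highest on chromosome 16, at 64.6%.

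Of the 7 marker genes, 5 were detected and 2 had no count. VIM, the intermediate filament of mesenchymal cells, stood at 2533, 2736 and 2742 TPM in replicates 1, 2 and 3, a mean of 2671 ± 119 (SD, n = 3) and rank 36 of all genes. CD44, the hyaluronan receptor, stood at 713, 754 and 797 TPM. With the length of its MANE Select transcript, the reference transcript chosen by MANE, in place of the length RSEM gave it, CD44 would average 274 TPM, an alternative scale added after seeing the data. Values with the MANE Select length were not rescaled to the same sum per library, so a longer length lowers them by construction. Which of the lengths fits the reads was not tested. EGFR, the epidermal growth factor receptor, had 60.9, 41.0 and 45.4 TPM, highest in replicate 1. ERBB2, its relative and the target of HER2 therapy, had 25.5, 28.6 and 32.4 TPM. RB1, the retinoblastoma protein that restrains entry into S phase, had 14.8, 8.51 and 12.7 TPM. ESR1 and PGR, the estrogen and progesterone receptor genes, had no count in any sample, which allows up to 0.0933, 0.103 and 0.113 TPM for ESR1 and up to 0.0716, 0.0790 and 0.0869 TPM for PGR. Ordered by level the 5 detected markers were all apart, since the 3 values of each lay above all 3 values of the next. The spread of RB1 came with its effective length, which was 1221, 2051 and 1418 bases, while its counts of 262, 230 and 216 corresponded to 12.5, 12.4 and 12.6 CPM.

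**Figure D2:**
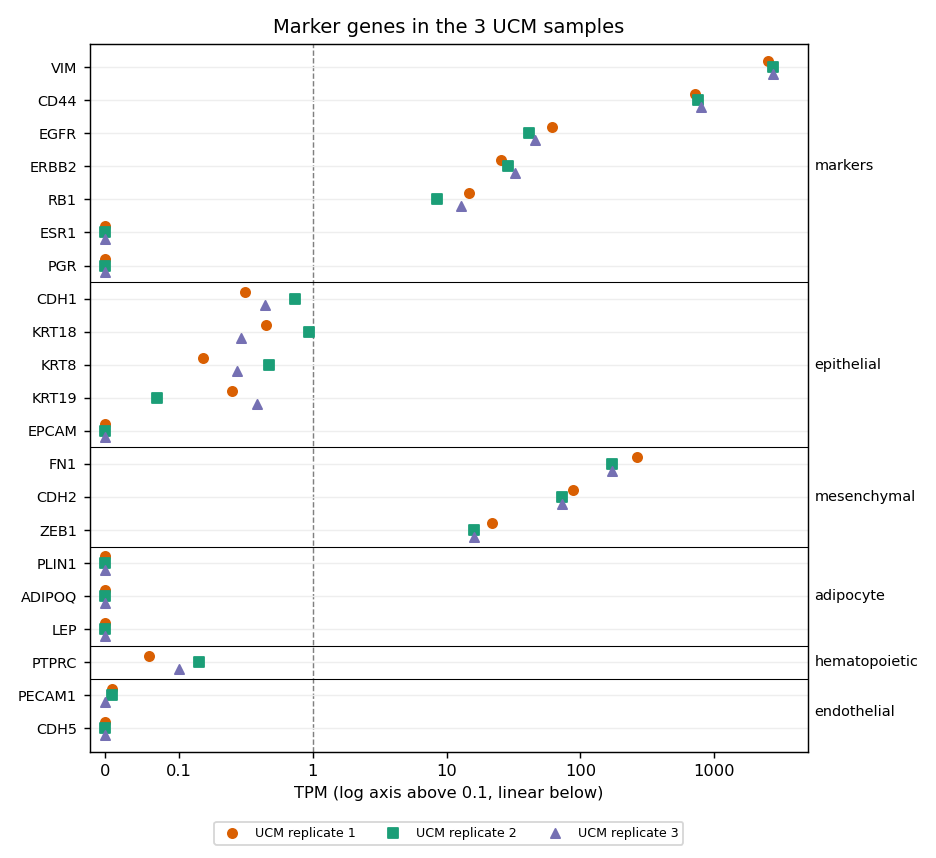
TPM of marker genes in UCM replicates 1, 2 and 3, 1 point per sample, on an axis that is logarithmic above 0.1 and linear below, with the detection threshold of 1 TPM as a dashed line. VIM lies between 2533 and 2742 TPM, the epithelial genes CDH1, KRT8, KRT18, KRT19 and EPCAM lie under 1 TPM, and ESR1, PGR, EPCAM, PLIN1, ADIPOQ, LEP and CDH5 lie at 0.

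The labels give the cell type as epithelial, and the defining markers of epithelium were absent or near absent. EPCAM, an epithelial surface protein, had no count, which allows up to 0.250, 0.275 and 0.301 TPM. CDH1, the E-cadherin of epithelial junctions, had 0.31, 0.73 and 0.44 TPM. The luminal keratin genes KRT8, KRT18 and KRT19 averaged 0.297, 0.560 and 0.233 TPM, on 14 or fewer counts in any sample, and KRT18 would average 0.37 TPM without replicate 2. KRT8 shares reads with processed copies, and its 51 annotated pseudogenes together had 8.77, 5.86 and 6.94 TPM, so its own level is uncertain. Of 55 keratin genes only KRT80 (24.8 TPM), KRT10 (18.3 TPM) and KRT7 (8.34 TPM, or 2.83 TPM with the MANE Select length) were detected, and 38 had no count.

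Among 32 epithelial adhesion and program genes 7 were detected, 21 were low and 4 had no count, with a median of 0.245 TPM against 4.47 TPM for all protein-coding genes. The regulators ELF3 and ESRP1 and the protease PRSS8 joined EPCAM at 0. CD24, a surface glycoprotein, was the highest member at 112, 153 and 157 TPM. The tight junction genes CLDN1 (38.6 TPM) and TJP1 (24.2 TPM) were detected, as was JUP (11.7 TPM), the plakoglobin of desmosomes and adherens junctions. MUC1, a mucin of the luminal surface, read 84.7, 32.4 and 43.9 TPM, yet its CPM of 20.3, 19.6 and 23.1 barely differed. The difference sat in the effective lengths that RSEM assigned to it.

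Of 24 hormone receptor and luminal genes 10 were detected, 4 were low and 10 had no count, with a median of 0.198 TPM. XBP1, a factor of the unfolded protein response, led at 67.5 TPM, followed by MLPH (41.7 TPM), which links melanosomes to myosin, ERBB2 and the T-box factor TBX3 (26.5 TPM), and with the MANE Select length MLPH would stand at 17.6 TPM, under ERBB2 (22.8 TPM) and TBX3 (22.3 TPM). GATA3, a factor that specifies luminal cells, averaged 3.24 TPM, and ERBB3, the partner receptor of ERBB2, was low at 0.25, 0.95 and 0.21 TPM. Basal and myoepithelial genes were mixed, with 10 of 23 detected at a list median of 0.640 TPM. Of 564 detected list genes with a MANE Select transcript 7 would fall under 1 TPM in a sample with that length, among them the transcription factor MYB of the luminal list and the surface peptidase MME of the basal list. ACTA2, the smooth muscle actin of myoepithelial cells and fibroblasts, reached 629 TPM and took most of the list's sum, and FOXC1 (30.9 TPM), CDH3 (23.6 TPM) and the oxytocin receptor OXTR (22.7 TPM) followed EGFR. The basal keratin genes KRT5 and KRT14 and the basal regulator TP63 averaged 0.0533, 0.0533 and 0.0300 TPM.

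Mesenchymal structural genes were abundant. Of 32 members 28 were detected and none was without counts, with a list median of 246 TPM and a summed level of 15381, 16344 and 16613 TPM in the 3 samples. After VIM came TPM2 (2016 TPM), a tropomyosin, SPARC (1436, 1895 and 1980 TPM), a secreted collagen-binding glycoprotein, and THY1 (913, 1237 and 1304 TPM), a surface glycoprotein of fibroblasts. SPARC, THY1 and the actin-binding TAGLN (724, 959 and 970 TPM) were lowest in replicate 1, and with the MANE Select length they would average 768, 298 and 321 TPM. TGFBI, a matrix protein induced by TGF-beta, was highest there at 912, 688 and 658 TPM. N-cadherin, encoded by CDH2, had 87.9, 72.8 and 73.1 TPM, and FN1, fibronectin, had 265, 173 and 172 TPM. The 4 low members were BGN, LUM, DCN and COL6A3, which encode 3 small proteoglycans and a chain of collagen VI. Of 27 pairs of neighbours in the order of levels 9 were apart, so that most ranks within this list are not separated by their spread.

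The transcription factors known to drive EMT were led by TWIST1, at 213, 237 and 297 TPM. Of 12 such genes 9 were detected, and the others stood far lower. TWIST2 averaged 34.6 TPM, SNAI2 33.4 TPM, SOX9 21.2 TPM, TCF4 19.4 TPM, ZEB1 17.97 TPM, ZEB2 16.3 TPM and SNAI1 11.5 TPM. TWIST1 was apart from all of them, whereas TWIST2 and SNAI2 overlapped. TCF4 and ZEB2 would average 7.49 and 7.05 TPM with the MANE Select length, under SNAI1 at 11.5 TPM. TBXT, the brachyury gene, had no count. Among 14 other intermediate filament and lamin genes 7 were detected. Beside VIM these were LMNA (615 TPM), LMNB1 (157 TPM) and LMNB2 (98.5 TPM) of the nuclear lamina, and SYNC, INA and SYNM at 63.8, 34.3 and 17.8 TPM. DES of muscle and GFAP of glia stayed low, and GFAP would average 0.03 TPM without replicate 2 in place of 0.293 TPM.

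Markers of other cell types were mostly low or without counts. Of 12 adipocyte markers 4 were detected, with a summed level of 49.1, 51.0 and 53.7 TPM, of which ADIPOR2, an adiponectin receptor found in many tissues, gave 31.3 TPM. The defining genes ADIPOQ, LEP and PLIN1 had no count, and neither had CIDEA, CIDEC or RETN. PPARG, the regulator of adipogenesis, was detected at 8.87, 11.7 and 12.5 TPM. Of 14 hematopoietic markers only CD68 was detected, at 6.36 TPM, and the list summed to 8.50, 6.66 and 6.32 TPM. PTPRC, the pan-leukocyte gene, had 3, 6 and 4 counts or 0.06, 0.14 and 0.10 TPM. Of 10 endothelial markers only ROBO4 was detected, at 1.67 TPM (0.820 TPM, under the threshold, with the MANE Select length), the list summed to 3.04, 2.37 and 2.69 TPM, CDH5 had no count, and PECAM1 reached 0.01 TPM. In bulk RNA few cells of a type and little RNA per cell cannot be told apart. Of 13 melanocytic and neural markers 5 were detected, summing to 691, 823 and 860 TPM, most of it from TUBB3 (581, 729 and 755 TPM), a tubulin of neurons and of many dividing tumor cells. NCAM1, a neural adhesion molecule, averaged 64.5 TPM, and TYR and S100B had no count.

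**Figure D3:**
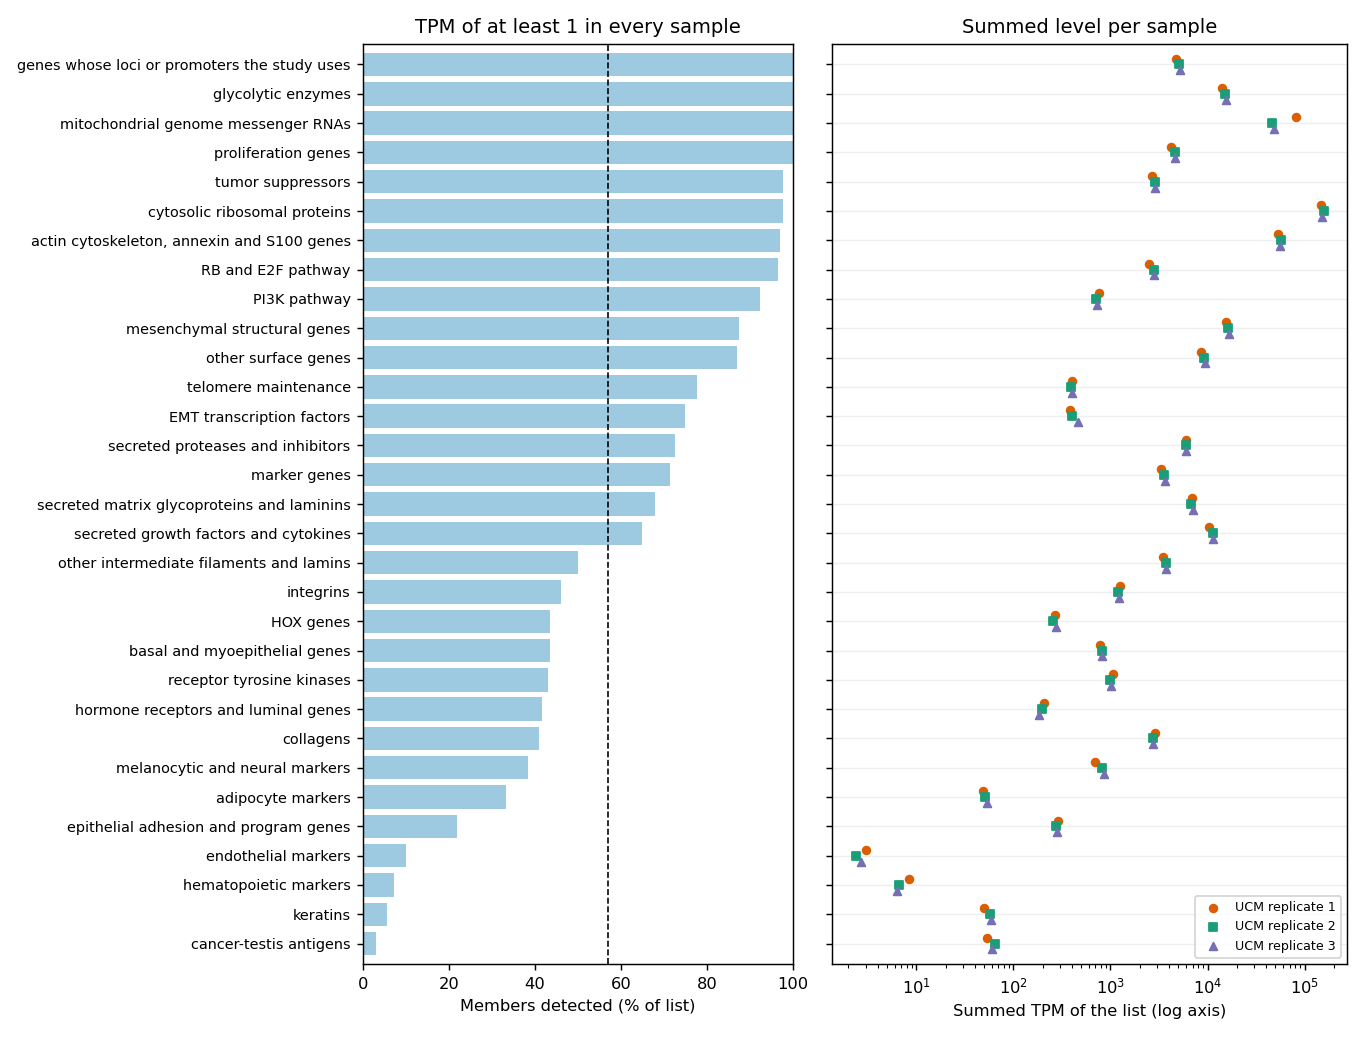
For each of 31 gene lists, the percent of members with at least 1 TPM in every sample (left, dashed line at 56.9% for all protein-coding genes) and the summed TPM in UCM replicates 1, 2 and 3 (right, log axis). All glycolytic, proliferation and mitochondrial members were detected, against 5.45% of keratins and 2.99% of cancer-testis antigens.

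Receptor tyrosine kinases were detected in 25 of 58 cases, with a list median of 0.535 TPM and sums of 1071, 996 and 1018 TPM. EPHA2, an ephrin receptor (235, 170 and 167 TPM), and AXL, the GAS6 receptor (176, 190 and 197 TPM), overlapped at the top and were both above FGFR1 (157, 138 and 139 TPM). PTK7 (95.4 TPM), EPHB4 (69.4 TPM), EGFR, the hepatocyte growth factor receptor MET (47.9 TPM), RYK (37.6 TPM) and TYRO3 (29.0 TPM, or 10.7 TPM with the MANE Select length) completed the highest 10 with ERBB2 as deposited. ERBB4, KIT, FLT1, FLT3 and NTRK2 were among 11 members without counts, and the platelet-derived growth factor receptors PDGFRA and PDGFRB were low.

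Integrins, the heterodimeric receptors for matrix, were dominated by the shared beta chain ITGB1 at 898, 879 and 893 TPM. Of 26 integrin genes 12 were detected, and the leading alpha chains were ITGA3 (102 TPM), a laminin receptor chain, and ITGAV (86.0, 60.2 and 65.0 TPM), of receptors for vitronectin and fibronectin. ITGAE followed at 53.9 TPM with the length RSEM gave it, and at 6.24 TPM with the MANE Select length. ITGB5 (43.1 TPM), ITGA5 (24.9 TPM) and ITGA6 (17.99 TPM) came next, and the leukocyte chains ITGAD, ITGAL and ITGAX had no count.

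Of 54 other surface genes 47 were detected, with a list median of 58.3 TPM and sums of 8583, 9164 and 9512 TPM. THY1 averaged 1151 TPM as deposited but 298 TPM with the MANE Select length, under B2M at 917 TPM on that scale. As deposited B2M, the light chain of class I molecules, had 970 TPM, the matrix protease inducer BSG 633 TPM and the tetraspanin CD63 499.9 TPM. TNFRSF12A, the TWEAK receptor, was highest in replicate 3, at 434, 422 and 653 TPM. CD70, the CD27 ligand usually found on activated lymphocytes, was even across samples at 355, 359 and 354 TPM. SLC3A2, a subunit of amino acid transporters, and the tetraspanin CD81 followed at 261 and 242 TPM. FOLR1 had no count, and NECTIN4, the target of an antibody-drug conjugate used in carcinoma, averaged 0.0233 TPM.

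Collagens formed a narrow set, with 18 of 44 detected, a list median of 0.522 TPM and sums of 2876, 2713 and 2765 TPM. COL1A1 (681, 568 and 558 TPM), COL6A1 (608, 557 and 526 TPM) and COL1A2 (463, 571 and 607 TPM) made up 61.5% of the sum and overlapped in level. Both chains of collagen I were therefore present at like levels, while COL6A3, the third common chain of collagen VI beside COL6A1 and COL6A2 (292 TPM), was low at 0.61, 0.26 and 0.79 TPM. The fibril chains COL5A2 (148 TPM), COL5A1 (128 TPM) and COL3A1 (122 TPM) and the basement membrane chain COL4A2 (104 TPM) followed.

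Secreted matrix glycoproteins and laminins were detected in 34 of 50 cases, summing to 6873, 6712 and 7011 TPM. SPARC and TGFBI led as deposited, and behind them the matricellular genes CCN1 (714 TPM), THBS1 (703 TPM) and CCN2 (667 TPM), targets of YAP and serum response factor among others, overlapped with TGFBI and one another. POSTN, periostin, had 351, 328 and 320 TPM. LAMC1 (156 TPM) was the leading laminin chain among the highest 10. SPP1, osteopontin, had no count.

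Of 40 secreted proteases and inhibitors 29 were detected, summing to 6022, 5938 and 6049 TPM, the smallest relative spread of the 32 list sums at 0.964%. The lysosomal protease CTSB held 1899.5 TPM (1025 TPM with the MANE Select length), apart from SERPINH1 (802 TPM), the collagen chaperone, which in turn was apart from CTSL (565 TPM). MMP14, the membrane-anchored collagenase, had 576, 334 and 359 TPM, and PLAU, the urokinase gene outside the highest 10 and chosen after its values were seen, had 240, 157 and 161 TPM, both highest in replicate 1. The inhibitors TIMP2 (263 TPM) and TIMP1 (256 TPM) overlapped. MMP7, TIMP4, SERPINB2 and A2M had no count.

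Secreted growth factors and cytokines gave 50 detected genes of 77, with sums of 10392, 11379 and 11487 TPM. LGALS1, the galectin 1 gene (3411 TPM), MIF (2140 TPM) and the follistatin-like FSTL1 (1305, 1810 and 1883 TPM) gave 65.1% of the sum, and FSTL1 would average 650 TPM with the MANE Select length. MDK, midkine, averaged 986 TPM, STC2, stanniocalcin 2, 481 TPM, and IGFBP3, which binds insulin-like growth factors, 477 TPM. WNT5B (169 TPM), the AXL ligand GAS6 (157 TPM), NAMPT (152 TPM) and the chemokine CXCL1 (187, 124 and 134 TPM) completed the highest 10 as deposited. STC2 would average 277 TPM and NAMPT 69.7 TPM with the MANE Select length. The EGFR ligands AREG, EREG and BTC had no count, nor had HGF, the ligand of MET. HBEGF, another EGFR ligand and chosen after its values were seen, was detected.

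Tumor suppressor genes were detected in 45 of 46 cases, the exception being FHIT (0.320 TPM), with a list median of 20.8 TPM. CDKN2A, which encodes the inhibitors p16 and p14ARF, stood far above the rest at 1091, 1329 and 1303 TPM. CBFB, a subunit of the core-binding factor, had 112, 109 and 125 TPM. BAP1 (100.5 TPM), KEAP1 (81.1 TPM), NF2 (75.4 TPM), NCOR1 (72.3 TPM), ARID1A (64.0 TPM), SMAD2 (60.8 TPM) and RASSF1 (57.3 TPM) were among the highest 10. These values count all transcripts of a gene and do not show whether an intact reading frame was made.

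Several of these levels depended on which length was used, and which length fits the reads was not tested. RSEM gave RB1 a mean length of 1843 bases, 38.6% of the 4768 bases of its MANE Select transcript, and 6.81% of detected genes had a lower ratio. With the MANE Select length, added after seeing the data, RB1 stood at 3.97 TPM in place of 12 TPM. SMAD2, whose MANE Select transcript has 34626 bases against 1821 given by RSEM, fell to 2.71 TPM. NCOR1 fell to 24.5 TPM and CBFB to 75.0 TPM, under KEAP1 at 77.95 TPM, while CDKN2A (1245 TPM) was hardly altered. Over 11176 detected protein-coding genes with such a transcript the median ratio of lengths was 0.856. FHIT remained the only suppressor under 1 TPM among the 45 with a MANE Select length.

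**Figure D4:**
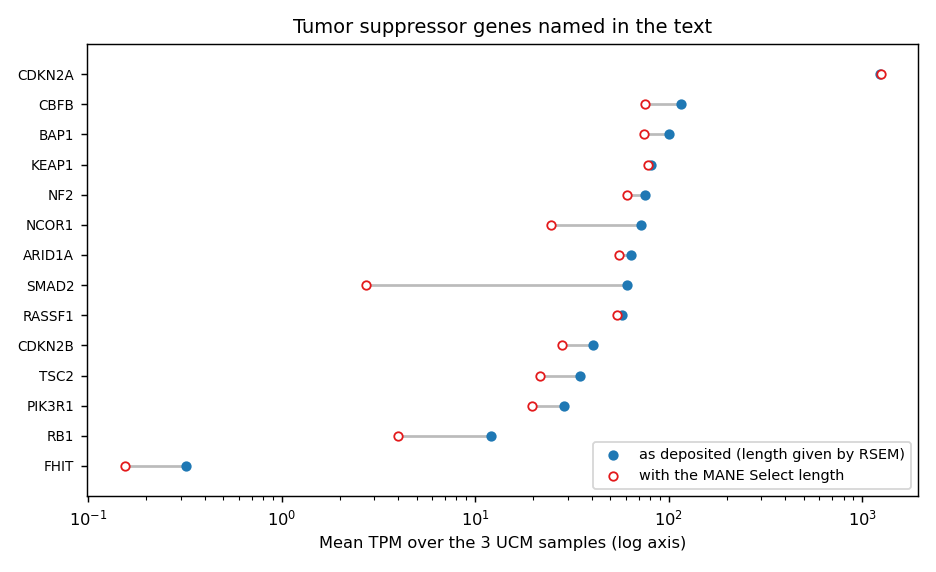
Mean TPM over the 3 UCM samples of the tumor suppressor genes named in the text, as deposited (filled) and with the length of the MANE Select transcript (open), on a log axis with a line joining both values. CDKN2A hardly differs between the scales, whereas SMAD2 goes from 60.8 to 2.71 TPM and RB1 from 12 to 3.97 TPM.

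The protein-coding genes around RB1 and CDKN2A are described in GRCh38 coordinates. Their counts are few and include RB1 and CDKN2A themselves, beside 56.9% detected among all protein-coding genes. RB1 (chr13:48303744-48599436, plus strand) had 8 protein-coding genes, itself included, starting within 500 kb, of which 7 were detected. ITM2B, upstream of it, was highest at 167, 181 and 180 TPM (16.9 TPM with the MANE Select length), and LPAR6, which lies within RB1 on the opposite strand, had 8.48, 13.8 and 16.5 TPM. CDKN2A (chr9:21967752-21995301, minus strand) had 4, itself included, of which 3 were detected, MTAP at 61.5, 49.8 and 48.9 TPM and CDKN2B at 27.0, 46.3 and 48.0 TPM, or on average 24.2 and 28.0 TPM with the MANE Select length. MTAP and CDKN2B are often lost together with CDKN2A in tumors, and RNA of both was detected here. Gene copy number was not tested. LPAR6, MTAP and CDKN2B were chosen after their values were seen.

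In the RB and E2F pathway 28 of 29 genes were detected, with sums of 2468, 2837 and 2795 TPM and CDKN2A giving the largest part. CDK4, the kinase that p16 inhibits, had 218, 271 and 246 TPM and overlapped with CDKN2C (239 TPM), another inhibitor of the class of p16. With the MANE Select length they would not overlap, CDK4 standing at 161 TPM and CDKN2C at 462 TPM. TFDP1 (196 TPM), the partner of E2F factors, E2F1 (104 TPM), CCND3 (90.3 TPM), E2F4 (89.6 TPM) and CDK2 (71.8 TPM) followed. The cyclin gene CCND2 was the low member, at 0.04 TPM in replicate 1 and 0 in the others.

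The PI3K pathway had 24 of 26 genes detected, summing to 754, 704 and 733 TPM. RHEB, the activator of mTORC1 (148 TPM), overlapped with the kinase gene AKT1 (130 TPM), which overlapped with AKT2 (122.7 TPM). With the MANE Select length AKT2 would stand at 45.1 TPM, below AKT1 at 117 TPM. MTOR itself had 43.5 TPM, TSC2 34.7 TPM and the regulatory subunit genes PIK3R2 and PIK3R1 31.5 and 28.8 TPM. INPP5D and PIK3CG, genes of blood cells, had no count.

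Proliferation genes were all detected, 27 of 27, at a list median of 129 TPM and sums of 4201, 4621 and 4648 TPM. UBE2C (469 TPM) and CDC20 (252 TPM), of the anaphase-promoting complex machinery, CCNB1 (418 TPM), the mitotic cyclin, PCNA (398 TPM), the sliding clamp of replication, AURKA (250.5 TPM) and the helicase subunit MCM7 (248 TPM) led. In telomere maintenance 7 of 9 genes were detected, summing to 401, 390 and 399.5 TPM. DKC1, dyskerin, led at 169.9, 169 and 167 TPM. TERT, the catalytic subunit of telomerase, was low at 0.93, 2.10 and 0.90 TPM, and the 50, 51 and 38 counts behind these values differed less. TERC, the RNA template, had no count, but its transcript lacks a poly(A) tail and is poorly read in polyA libraries.

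HOX genes, which set position along the body axis, were expressed by cluster. All 9 HOXC genes and 8 of 10 HOXB genes were detected, while none of 11 HOXA and none of 9 HOXD genes was. Summed TPM were 127, 111 and 122 for HOXB and 138, 144 and 150.1 for HOXC, against 1.84, 1.40 and 1.2 for HOXA and 0.50, 0.33 and 0.71 for HOXD. HOXB2 (48.5 TPM) and HOXC10 (45.4 TPM) overlapped at the top and were apart from HOXB3 (29.7, 17.7 and 22.01 TPM), HOXC6 (22.7 TPM), HOXC8 (22.3 TPM) and HOXC9 (20.7 TPM). Cancer-testis antigens, silent in most adult tissues, showed 2 detected genes of 67 and 57 without counts, summing to 53.9, 65.4 and 59.5 TPM. MAGEA12 had 34.0, 41.4 and 38.0 TPM and PRAME had 17.5, 21.8 and 19.4 TPM, together 97.6% of the sum with MAGEA6. MAGEA genes share long stretches of sequence, so how reads were split among them is uncertain.

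**Figure D5:**
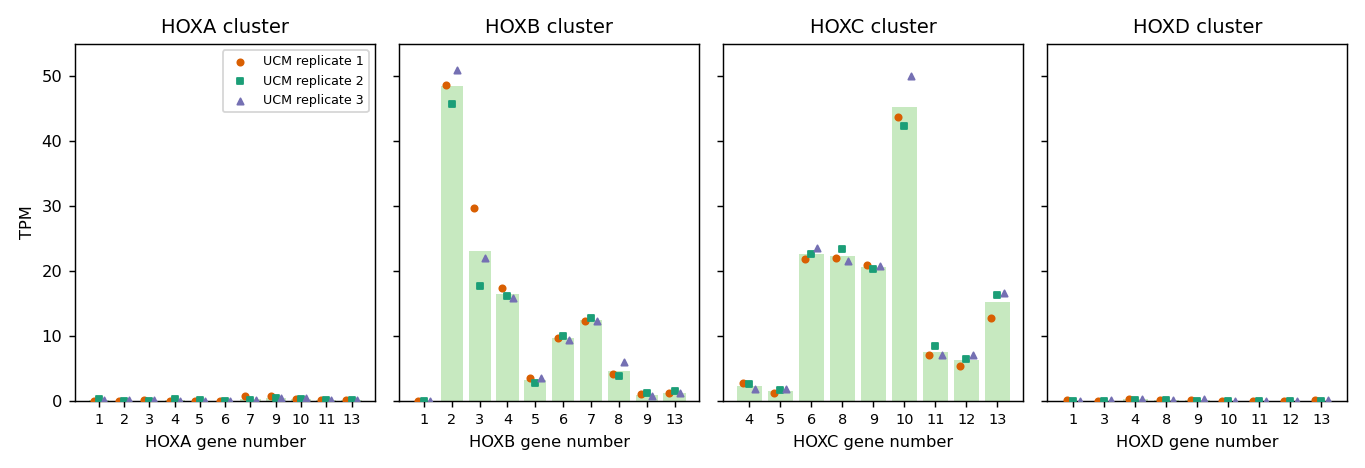
TPM of the 39 HOX genes by cluster, with bars for the mean and 1 point for each of UCM replicates 1, 2 and 3. The HOXB and HOXC clusters reach 48.5 and 45.4 TPM, and no HOXA or HOXD gene reaches 1 TPM in every sample.

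The 30 genes of highest mean TPM held 10 ribosomal protein genes, 9 messenger RNAs of the mitochondrial genome, 5 genes of the actin cytoskeleton and 1 glycolytic gene. The remaining 5 were FTH1, EEF1A1, MT-RNR2, PPIA and MT2A. ACTB, cytoplasmic actin, was first by mean at 11047, 11540 and 11397 TPM, though MT-CO2 lay above it in replicate 1 at 13951 TPM. TMSB10, a thymosin that binds actin monomers, had 9481, 10528 and 9865 TPM, FTH1, the heavy chain of the iron store ferritin, 9108 TPM, and EEF1A1, the elongation factor that brings aminoacyl-tRNA to the ribosome, 6898 TPM. PPIA, cyclophilin A, averaged 4571 TPM. MT2A, a metallothionein, differed more between samples, at 4433, 3391 and 2857 TPM. With the length of the MANE Select transcript FTH1 would stand at 4447 TPM, EEF1A1 at 3233 TPM and PPIA at 1035 TPM, so that ranks near the top depend on the length used.

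Cytosolic ribosomal protein genes were detected in 84 of 86 cases, the copies RPL3L and RPL10L being low, and took 14.6, 15.8 and 15.2% of TPM. RPL39 (5490 TPM), RPL10 (5158 TPM) and RPL8 (4480 TPM) were highest as deposited, while RPL10 would stand at 1183 TPM and RPL13 at 745 TPM in place of 3596 TPM with the MANE Select length, and 11 of 83 neighbouring pairs were apart. Ribosomal protein genes have many processed copies, so single levels are uncertain. All 13 mitochondrial messenger RNAs were detected, MT-CO2 highest at 13951, 8361 and 8548 TPM, and no neighbours were apart in their order. MT-ATP8 and MT-ND4L averaged 7077 and 6991 TPM on effective lengths of only 3.66 and 32.4 bases in replicate 1, which makes their TPM unreliable. Of 34 actin cytoskeleton, annexin and S100 genes 33 were detected, summing to 53341, 56681 and 55399.5 TPM, with PFN1 (5277 TPM), ACTG1 (4453 TPM) and TMSB4X (4148 TPM) behind ACTB and TMSB10, and S100A16 had no count.

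All 17 glycolytic genes were detected, with sums of 14238, 15245 and 15409 TPM and 14 of 16 neighbouring pairs apart. ENO1, enolase, led at 4540 TPM, followed by GAPDH (2804 TPM), ALDOA (1913 TPM) and PKM (1668 TPM), each apart from the next. The study used 4 genes for reporter promoters, for an insertion site or for normalization, and all were expressed. GAPDH had 2704, 2827 and 2881 TPM, RPL13A, a ribosomal protein gene, 1743, 1969 and 1945 TPM, PGK1, a glycolytic kinase, 305, 312 and 321 TPM, and PARVA, a focal adhesion gene, 15.8, 18.3 and 17.6 TPM. With the MANE Select length PGK1 would average 131 TPM and PARVA 9.30 TPM. All 4 were lowest in replicate 1 after scaling, as were 43.8% of all detected nuclear protein-coding genes. So were 68 of 84 ribosomal protein genes and 12 of 17 glycolytic genes, classes that include RPL13A, GAPDH and PGK1. The 4 levels were apart.

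The 100 nuclear protein-coding genes of highest mean TPM had a median protein length of 183.5 residues, or 254 with ribosomal proteins left out, against 465 for all detected and 328 for undetected genes. TPM divides counts by length and CPM does not, so at equal TPM a longer transcript has a higher CPM. Ranked by mean CPM, an alternative added after seeing the data, the 100 highest genes had a median of 411.5 residues. With ribosomal proteins left out it was 440.5 residues. Promoters, from 250 bases before to 50 bases after the start, were taken from RefSeq on GRCh38.p14 and matched by symbol for 81 of these 100 genes and for 9293 of 11354 detected genes. Their median GC content was 62.3% in the 100 genes and 65.7% in detected genes, but 66.3% when the 100 genes were ranked by CPM with ribosomal proteins left out. The letters TATAAA, searched on the strand of the gene from 50 to 11 bases before the start, occurred in 6 of 81 promoters (7.41%), against 136 of 9293 (1.46%) for detected genes and 2.82% of all 27195 promoters in the table. GGGCGG, on either strand, occurred in 64.2% against 72.4% (44.7% of all promoters), and CCAAT, on either strand, in 34.6% against 35.5% (33.0% of all). With ribosomal proteins left out the shares were 8.64% for TATAAA, 79.0% for GGGCGG and 38.3% for CCAAT, so for the latter pair the direction against detected genes turned. For low and undetected genes under 80% had a promoter in the table, so that comparison is void. The 6 genes with TATAAA were PPIA, MT2A, RPLP0, CALR, ANXA2 and SLC25A5. Promoters are shown for PPIA (chr7:44796431-44796730) and MT2A (chr16:56608334-56608633), which hold TATAAA and are among the 30 highest genes. Those of RPL13A (chr19:49487358-49487657) and VIM (chr10:17227991-17228290) are shown as windows without TATAAA. Each window follows the annotated start, and the start used in these cells was not tested. The VIM window had 48.0% GC, against the median of 65.7% in detected genes. All 4 lie on the plus strand of GRCh38.p14 and are written from 5′ to 3′, with the 3 motifs in capitals, the last pair of them on either strand. A match is a description of letters and not of a bound site.
PPIA: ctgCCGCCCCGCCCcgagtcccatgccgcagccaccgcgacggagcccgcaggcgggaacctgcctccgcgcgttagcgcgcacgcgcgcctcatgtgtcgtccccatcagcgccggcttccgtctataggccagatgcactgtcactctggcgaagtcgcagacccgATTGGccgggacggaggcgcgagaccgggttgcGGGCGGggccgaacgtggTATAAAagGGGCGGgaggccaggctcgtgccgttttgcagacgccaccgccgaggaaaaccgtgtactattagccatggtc
MT2A: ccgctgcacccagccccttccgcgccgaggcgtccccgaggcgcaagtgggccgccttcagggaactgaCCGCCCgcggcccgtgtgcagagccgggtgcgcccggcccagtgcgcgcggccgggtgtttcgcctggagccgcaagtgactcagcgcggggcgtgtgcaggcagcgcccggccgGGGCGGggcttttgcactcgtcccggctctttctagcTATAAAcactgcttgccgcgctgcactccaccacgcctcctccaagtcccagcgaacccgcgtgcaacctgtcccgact
RPL13A: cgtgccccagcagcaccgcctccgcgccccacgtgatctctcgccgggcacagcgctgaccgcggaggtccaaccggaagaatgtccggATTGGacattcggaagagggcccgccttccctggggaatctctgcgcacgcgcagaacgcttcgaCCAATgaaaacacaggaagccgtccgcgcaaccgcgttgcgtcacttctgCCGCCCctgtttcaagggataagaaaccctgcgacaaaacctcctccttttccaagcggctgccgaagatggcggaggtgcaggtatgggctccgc
VIM: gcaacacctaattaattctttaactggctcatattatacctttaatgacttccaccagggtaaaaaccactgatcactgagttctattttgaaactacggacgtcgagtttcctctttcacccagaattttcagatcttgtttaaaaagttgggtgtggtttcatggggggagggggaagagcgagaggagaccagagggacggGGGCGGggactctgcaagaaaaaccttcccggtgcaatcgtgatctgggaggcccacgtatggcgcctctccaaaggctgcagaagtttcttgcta

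Spread between replicates was small for most genes. The SD of TPM over its mean had a median of 9.60% across 12748 detected genes, and 7.85% for CPM scaled by TMM factors. Without replicate 1 the median for TPM was 5.69%, against 9.06% without replicate 2 and 8.91% without replicate 3. Among protein-coding genes it was 15.5% under 10 TPM, 8.11% from 10 TPM, 5.51% from 100 TPM and 5.31% from 1000 TPM. In CPM the top tier had the larger median of the last pair, 5.65% against 5.06%, and its 90th percentile in TPM was 22.5% against 11.5%, so spread did not keep falling with level. The common coefficient of biological variation from edgeR was 10.7% with all 3 samples and 3.00% without replicate 1, against 12.8% without replicate 2 and 12.9% without replicate 3.

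Of 8574 genes with a mean of at least 10 TPM, 46 (0.537%) differed by at least 2-fold in CPM between their highest and lowest sample. Among the 10 with the highest ratio 7 were named by an Ensembl identifier only. EGR1, an immediate early transcription factor, had 28.5, 107 and 115 CPM, lowest in replicate 1. MAGED4 and MAGED4B, the other 2, are near-identical copies on X. MAGED4 had 51.0, 13.2 and 18.3 CPM and MAGED4B 10.9, 46.5 and 44.1 CPM, while their sum held at 61.9, 59.7 and 62.3 CPM, so only the split between copies differed. Genes below these, chosen after their values were seen, included the cytokines LIF (180.4, 64.7 and 69.5 CPM) and CXCL8 (43.8, 19.6 and 14.9 CPM) and the long genes AHNAK (659, 279.9 and 318 CPM) and DST (433, 208 and 222 CPM), all highest in replicate 1. Of 24 protein-coding genes past 2-fold, 15 were highest in replicate 1.

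Part of the spread in TPM arose from length and not from counts. Effective length differed between samples by at least the limit used here for a narrow spread in 1719 of 11372 detected protein-coding genes (15.1%), and by at least 2-fold in 137. Of 361 genes whose TPM differed by at least 2-fold, 48 (13.3%) stayed under that limit in CPM. BACH1, a repressor of antioxidant genes, had 7.70, 36.7 and 7.69 TPM but 21.98, 21.3 and 20.3 CPM. AP3M2, an adaptor subunit, had 19.3, 73.4 and 19.99 TPM but 36.4, 37.3 and 35.7 CPM. Both were chosen after their values were seen, and in both the TPM of replicate 2 rested on a shorter assigned length. Other genes given above as deposited would also fall by over 1.5 times with the MANE Select length. They include LMNA (to 394 TPM), FGFR1 (95.96 TPM), HOXB2 (31.05 TPM), ITGB5 (26.2 TPM), TSC2 (21.5 TPM), HOXB3 (14.7 TPM) and CDH3 (13.5 TPM). BACH1 and AP3M2 are also among them, as are KRT8, GFAP, PTPRC and FHIT, which averaged under 1 TPM as deposited.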

How the data were processed

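RNA-seq of the 3 UCM samples was analysed from gene tables that the authors deposited, made per the labels with Trim Galore, STAR and RSEM against GRCh38 (hg38), with versions not given in the sources used here. Expected counts, TPM and effective lengths are the authors' deposited values. The authors' fold-change table and the other 3 samples were not used here. Of 63140 gene IDs, 61547 matched GENCODE 44 with their version, 994 without it and 599 not at all. Genes on the Y chromosome were left out of protein-coding counts and lists. CPM were computed from expected counts, which were rounded for edgeR 4.0.16 (R 4.3.3), with TMM factors, its filter on low counts and an intercept as the only term. The spread code was tested on simulated data. Other steps used Python 3.11.15, pandas 2.3.3, numpy 2.4.6 and matplotlib 3.10.9.

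With 1 group there was no test. Lists were described by counts, sums and medians beside all protein-coding genes, and neighbours in an order were called apart where the 3 values of one lay above all values of the other. Members and the 32 lists (945 genes) were chosen with earlier results of these data known. Some genes and 1 of the lists are not reported here. Highest over lowest value between samples was taken as narrow under 1.25. Genes named were the 30 of highest mean TPM, the markers and lineage markers plotted, up to 10 members of highest mean TPM of each list and those the study names, low or undetected members that define a list, the 10 genes of highest CPM ratio at a mean of at least 10 TPM, and the highest genes within 500 kb of RB1 and CDKN2A, and others are marked as chosen after their values were seen. Alternatives left out each replicate, used 1 effective length per gene, rescaled TPM over nuclear protein-coding genes, and changed the threshold, normalization or filter, and the MANE Select length and the ranking by CPM were added after seeing the data. Values with the MANE Select length kept the scale of the deposited TPM and were not rescaled.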

Additional observations from a re-analysis of the deposited data

How the results depend on the processing

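The number of detected genes, 12748, stayed within 1.5 times of itself under every alternative run, from 9878 at a threshold of 5 TPM to 13879 at 0.5 TPM, and from 12957 to 13025 with 1 replicate left out. The common coefficient of biological variation, 10.7%, ran from 3.00% to 12.9% with 1 replicate left out, and was 10.6% with RLE size factors and 11.4% with no filter. The median SD over mean, 9.60%, ran from 5.69% to 9.06% with 1 replicate left out, and was 7.84% with 1 effective length per gene, 7.85% for TMM-scaled CPM and 7.57% for genes with a mean of at least 10 TPM. Which property of replicate 1 lies behind these shifts was not tested. Leaving out 1 of 3 samples cannot move a mean by as much as its SD, so sums and gene means were read by size of shift instead: no sum of the 32 lists moved by over 1.5 times when a replicate was left out, and of the 304 genes that the naming rule gives by level or as markers 5, 12 and 7 did without replicates 1, 2 and 3. Rescaling TPM over nuclear protein-coding genes raised all 31 sums that could be formed, 27 of them by over 1 SD, since it shares the same total among fewer genes. With 1 effective length per gene 1 of 32 sums moved by over 1 SD. With the MANE Select length, chosen after seeing the data, 69 of the 289 such genes that have one moved by over 1.5 times, and 231 were lower. These values were not rescaled to the same sum per library. Since the median ratio of RSEM to MANE Select length was 0.856, most of them fall by construction. No paired analysis was possible because only 1 group was analysed. The 3 samples may be technical replicates, a level under about 0.251 TPM at 1 kb rests on 3 or fewer counts, and 1 library decided the spread.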
